A study of Mus musculus with 6 samples.

Results

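The miR-378 family of mouse miRNAs was examined in liver RNA from a model of toxic fibrosis. Its members were taken by name, as every mouse miRNA of the array called miR-378 with an optional letter from a to d, which gave 5 of 1247 miRNAs: mmu-miR-378a-3p, its partner arm mmu-miR-378a-5p, mmu-miR-378b, mmu-miR-378c and mmu-miR-378d. The scanner software flagged 4 of the 5 as detected on all 6 arrays, as it did 166 of the 1247, and miR-378c on none. The arrays were single-color, each with total liver RNA of 1 male C57BL/6 mouse. Carbon tetrachloride (CCl4), a solvent that injures hepatocytes and leads to fibrosis, was injected intraperitoneally into 3 mice at 0.6 mL/kg, dissolved in corn oil, while 3 control mice received an equal volume of the oil alone. Dosing began when the mice were 7 weeks old and continued 2 times weekly over 10 weeks, with livers taken 48 h after the final dose. The family was selected because its members were lower after CCl4 on these same arrays, so the values between groups are a description and carry no test of their own. In whole tissue, fewer cells that make a miRNA and less of it per cell cannot be told apart.

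A miRNA is cut from a hairpin precursor, of which one or both arms persist, and it pairs with messenger RNAs mainly through its seed, the bases 2 to 8 from the 5′ end, which lowers their stability or translation. The gene of miR-378a lies within the span of Ppargc1b, which encodes PGC-1β, a transcriptional coactivator of mitochondrial and lipid metabolism. In the liver, miR-378 is known for its roles in lipid and glucose metabolism.

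The mature sequences of miR-378b, miR-378c and miR-378d are shown because they set how alike the seeds of these members are. They are RefSeq entries of GRCm38.p6, 5′ to 3′, with the seed in capitals; 1017 of the 1247 array miRNAs matched that table by name. miR-378a-3p and miR-378a-5p are named only.
miR-378b: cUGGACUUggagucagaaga
miR-378c: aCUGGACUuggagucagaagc
miR-378d: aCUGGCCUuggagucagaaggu
miR-378b lies at chr11:88352839-88352858 on the plus strand, within the span of Msi2, which encodes an RNA-binding protein, near the 3′ end of its hairpin (bases 67 to 86 of 92). miR-378c lies at chr14:46954905-46954925 on the minus strand, within the spans of Samd4 and Gm52120, near the 5′ end of its hairpin (bases 4 to 24 of 99). miR-378d lies at chr10:126710355-126710376 on the minus strand, within no other gene span of the table, at bases 16 to 37 of a hairpin of 110. The table gives gene spans and not exons, so exonic or intronic position was not assigned. The strands of these genes, and of Ppargc1b, were not compared with those of the miRNAs. All 3 contain a run of 14 bases, cuuggagucagaag. With positions counted from 1 at the 5′ end of miR-378c, miR-378b lacks the first base and carries C21A, leaving 19 of 20 aligned bases the same. miR-378d carries A6C, which falls inside the seed, and C21G, leaving 19 of 21 the same. The 3 seeds differ from each other.

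The arrays differed in overall signal before normalization. Between 186 and 193 miRNAs were detected in control livers and between 227 and 334 after CCl4. CCl4 replicate 3 stood apart, with a rank correlation of at most 0.860 with the other treated livers, against at least 0.985 among controls. The median unnormalized log2 change of the 166 detected miRNAs was 0.99, and 0.45 without CCl4 replicate 3. Members are therefore given by their signal as deposited, by their rank among the 166 on each array, and after quantile normalization, which left a median change of -0.14.

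Once the arrays were quantile normalized, miR-378a-3p was 2.59-fold lower after CCl4, a log2 change of -1.37. Its total signal, the linear scanner intensity summed over its probes, was 63.5, 55.9 and 55.9 in control livers and 47.2, 47.8 and 93.4 in treated livers. Before normalization, then, CCl4 replicates 1 and 2 were below every control and CCl4 replicate 3 was above them all. Counted from the brightest miRNA, its rank was 61, 61 and 65 in controls and 94, 87 and 101 after CCl4. The liver with the highest signal of miR-378a-3p thus ranked it lowest, and the ranks of the groups did not overlap. Quantile-normalized values follow from the ranks, so the 2 are a single observation. In normalized values 24.7% of the 166 miRNAs were lower after CCl4 without overlap. The normalized log2 signal of miR-378a-3p was 6.66 ± 0.11 (SD, n = 3 livers) for corn oil and 5.28 ± 0.28 (SD, n = 3 livers) for CCl4. The change was -1.23 when CCl4 replicate 3 was left out. Unnormalized it was 0.03, which is -0.97 relative to the median of all detected miRNAs. Unnormalized and without CCl4 replicate 3 it was -0.30, or -0.75 relative to that median.

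miR-378b and miR-378d, whose hairpins lie on chromosomes 11 and 10, gave changes of similar size. Whether their probes read RNA of their own or of another member was not tested. The total signal of miR-378b was 47.2, 41.1 and 41.5 in controls and 33.5, 34.0 and 66.4 after CCl4. That of miR-378d was 57.7, 46.7 and 50.9 in controls and 40.02, 40.46 and 70.51 after CCl4. Both placed the livers as miR-378a-3p did, with CCl4 replicates 1 and 2 lowest and CCl4 replicate 3 highest. The ranks of miR-378b were 70, 71 and 75 in controls and 110, 99 and 114 after CCl4. Those of miR-378d were 62, 67 and 72 in controls and 101, 93 and 112 after CCl4. In ranks, as for miR-378a-3p, the groups did not overlap. After normalization miR-378b fell by 1.42 on the log2 scale, the mean of 3 livers going from 6.22 ± 0.12 (SD) to 4.80 ± 0.22. miR-378d fell by 1.46, its mean going from 6.45 ± 0.20 (SD) to 4.99 ± 0.31. Leaving out CCl4 replicate 3 gave -1.29 for miR-378b and -1.28 for miR-378d. Their unnormalized changes were -0.03 and -0.09, or -1.02 and -1.08 relative to the median of all detected miRNAs.

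**Figure D1:**
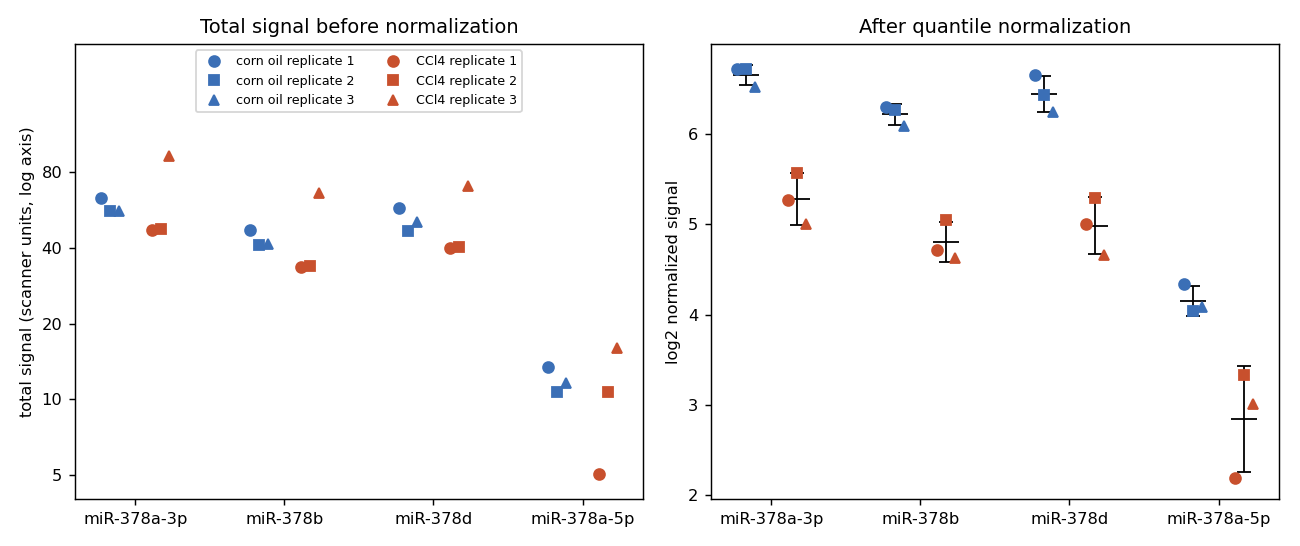
Total signal of the 4 detected members in each liver before normalization (left, log axis, scanner units) and log2 signal after quantile normalization (right; black bars, mean and SD of 3 livers). On the left CCl4 replicate 3 is above all controls for every member, and on the right the lowest control of miR-378a-3p is 0.95 above its highest treated liver.

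miR-378a-5p, cut from the same hairpin as miR-378a-3p, was dim. Its total signal was 13.4, 10.7 and 11.6 in controls and 5.01, 10.7 and 15.9 after CCl4, so the unnormalized groups overlapped. Its ranks were 124, 131 and 130 in controls and 165, 148 and 155 after CCl4, which did not overlap. The normalized log2 means of 3 livers were 4.15 ± 0.16 (SD) for corn oil and 2.85 ± 0.59 for CCl4, a difference of -1.31. Of its 40 spots, 23, 16 and 18 were well above background in controls and 5, 11 and 15 after CCl4. Over 50% of its spots were above background in 1 of 3 controls and in 0 of 3 treated livers, so no fold change is given for miR-378a-5p. Its difference was -0.32 without normalization, or -1.32 relative to the median of all detected miRNAs.

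The total of miR-378a-5p in CCl4 replicate 1 held a single probe. It equals the signal of the second probe, while the first, at 3.18 with 0 of 20 spots well above background, was not added. In the other 5 livers both were added. Adding both everywhere gave 8.19 for CCl4 replicate 1 and a normalized difference of -0.96. Such omissions were common, since the total matched the sum of all probes, within 0.1%, for 69.2% to 72.2% of the miRNAs detected on an array.

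miR-378c gave no detected signal, although it shares 19 of 20 aligned bases with miR-378b. Its first probe read between -0.29 and 0.34 and its second between 2.08 and 4.91. In corn oil replicate 1, 1 of its 40 spots was well above background, and 0 were in the other livers. The software writes 0.1 for an undetected miRNA, so no change is given for miR-378c.

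Each member was read by 2 probes of 20 spots. For miR-378a-3p the unnormalized log2 changes were 0.03 and 0.03, or -0.28 and -0.31 without CCl4 replicate 3. For miR-378d they were -0.11 and -0.05, or -0.39 and -0.31 without that liver. All spots of these 4 probes were well above background on all arrays, and the signals of the spots of a probe varied by 3.75% to 13.0% (coefficient of variation). miR-378b rested on its second probe, which gave 86.6% to 88.0% of its signal. The first probe of miR-378b had 14, 7 and 6 of 20 spots well above background in controls and 2, 0 and 5 after CCl4, and with it over 50% of all spots were above background in 2 of 3 treated livers. The bright probe of miR-378b gave an unnormalized change of -0.02, or -0.35 without CCl4 replicate 3. No change is read from its dim probe or from the probes of miR-378a-5p.

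**Figure D2:**
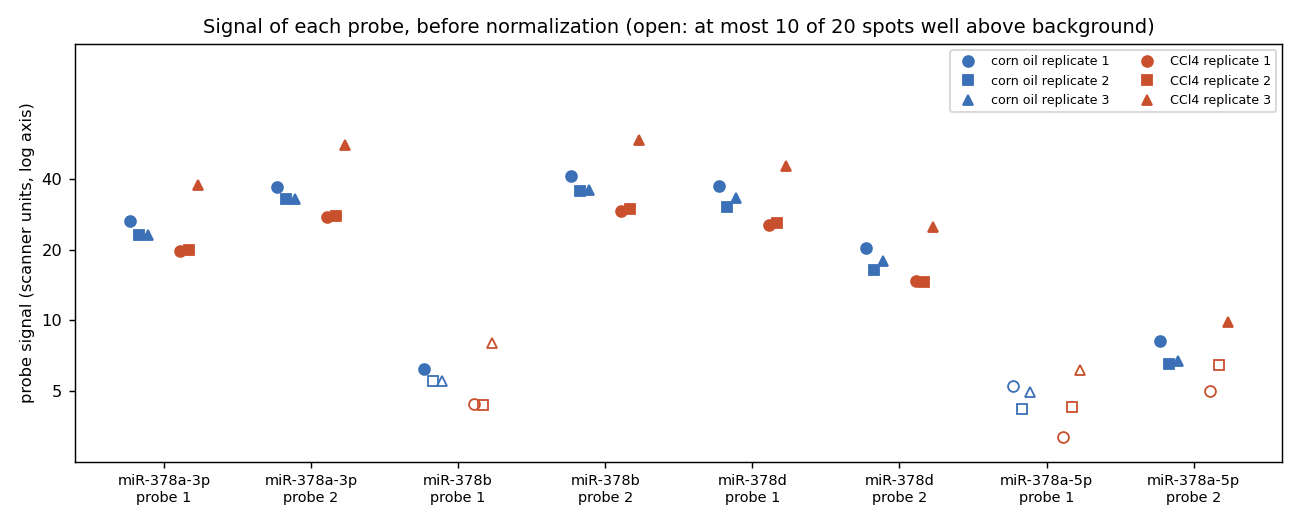
Signal of both probes of each detected member in each liver before normalization (log axis, scanner units); open symbols mark at most 10 of 20 spots well above background. Each probe is highest in CCl4 replicate 3, and the dim probe of miR-378b has open symbols in all 3 treated livers.

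Ratios of members within an array do not depend on scaling between arrays. Set against its control mean, the log2 ratio of miR-378b to miR-378a-3p was 0.01, -0.01 and 0.00 in controls and -0.06, -0.06 and -0.06 after CCl4. It spanned 0.07 over all 6 livers, and the groups did not overlap. The share of other miRNA pairs whose ratios separate likewise was not computed. The ratio of miR-378d to miR-378a-3p was 0.04, -0.08 and 0.04 in controls and -0.06, -0.06 and -0.23 after CCl4, where the groups overlapped. The 3 members thus moved nearly in parallel, also in the liver that stood apart. Whether a probe of one member also binds another was not tested.

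The ratio between the arms of the miR-378a hairpin rests on the dim miR-378a-5p. With both probes of miR-378a-5p added, its log2 ratio to miR-378a-3p, relative to the control mean, was 0.06, -0.09 and 0.03 in controls and -0.23, 0.14 and -0.25 after CCl4. The groups overlapped, and their difference of -0.12 was smaller than the SD of 0.22 among treated livers. With the totals as deposited, CCl4 replicate 1 stood at -0.94.

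miR-122-5p, the characteristic miRNA of hepatocytes, gave a reference outside the family. The log2 ratio of miR-378a-3p to miR-122-5p, relative to the control mean, was 0.10, 0.02 and -0.12 in controls and 0.12, -0.11 and 3.71 after CCl4. In CCl4 replicates 1 and 2 it averaged 0.01 from the control mean, within the SD of 0.11 among controls. In CCl4 replicate 3 the total signal of miR-122-5p was 2158, against 16613 to 18345 in controls, while miR-378a-3p was at its highest.

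**Figure D3:**
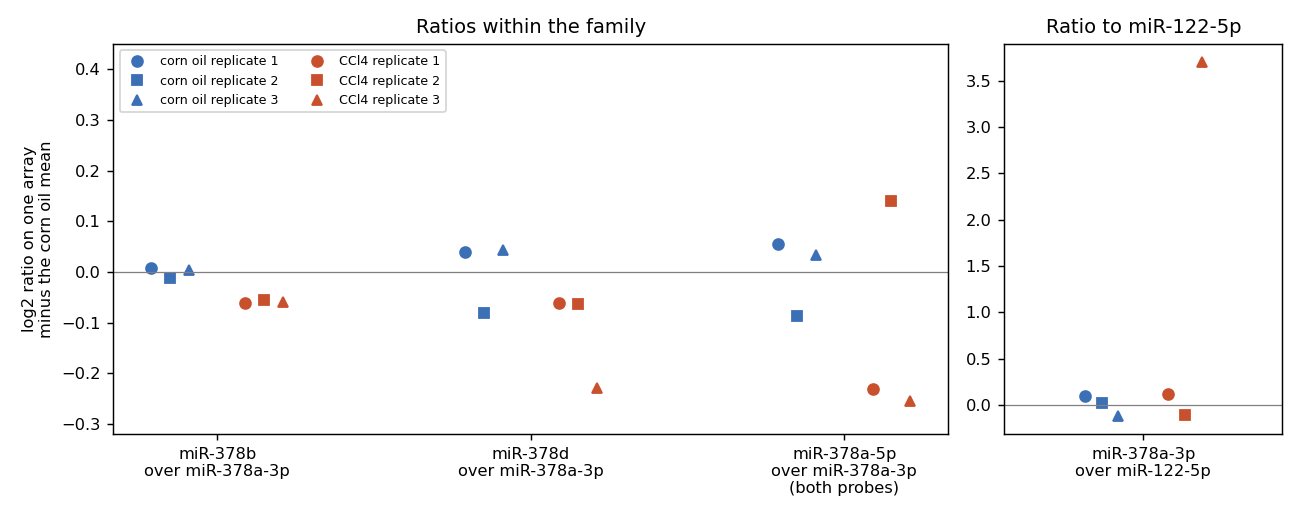
Log2 ratios within each array, minus the control mean, between members of the family (left) and of miR-378a-3p to miR-122-5p (right, wider axis); each symbol is 1 liver. With both probes of miR-378a-5p summed, ratios within the family lie between -0.25 and 0.14 (from the deposited totals miR-378a-5p stands at -0.94 in CCl4 replicate 1), and the ratio to miR-122-5p is 3.71 in CCl4 replicate 3.

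Of the 166 miRNAs, limma called 12.0% with a Benjamini-Hochberg threshold of 0.05 and a change over 2-fold, 12 of them higher (7.23%) and 8 lower (4.82%) after CCl4. Among the 8 were 3 of the 4 detected members, namely miR-378d, miR-378b and miR-378a-3p. The family was chosen from this contrast, so nothing is read from that count. Normalized values of the groups did not overlap, with CCl4 lower, for 4 of 4 detected members and for 24.7% of the 166 miRNAs. From the most negative change upward, miR-378d, miR-378b, miR-378a-3p and miR-378a-5p held positions 5, 6, 7 and 9. How many members were called depended on single livers: 0 without corn oil replicate 2 or CCl4 replicate 1, 1 (miR-378b) without corn oil replicate 1 or 3, and 4 without CCl4 replicate 2 or 3. The count over all 166 miRNAs moved with it, at 5 (0 lower) without corn oil replicate 2 and 5 (0 lower) without CCl4 replicate 1, 7 and 6 (1 lower each) without corn oil replicate 1 or 3, 21 (9 lower) without CCl4 replicate 2 and 28 (12 lower) without CCl4 replicate 3. The change of miR-378a-3p stayed between -1.48 and -1.23 in those fits. The count also depended on scaling. It was 0 without normalization, where 18 miRNAs were called higher and 0 lower, and 0 with arrays scaled to the 75th percentile of all miRNAs, where 22 were higher and 0 lower. With median scaling it was 4, beside 10 miRNAs higher and 17 lower.

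**Figure D4:**
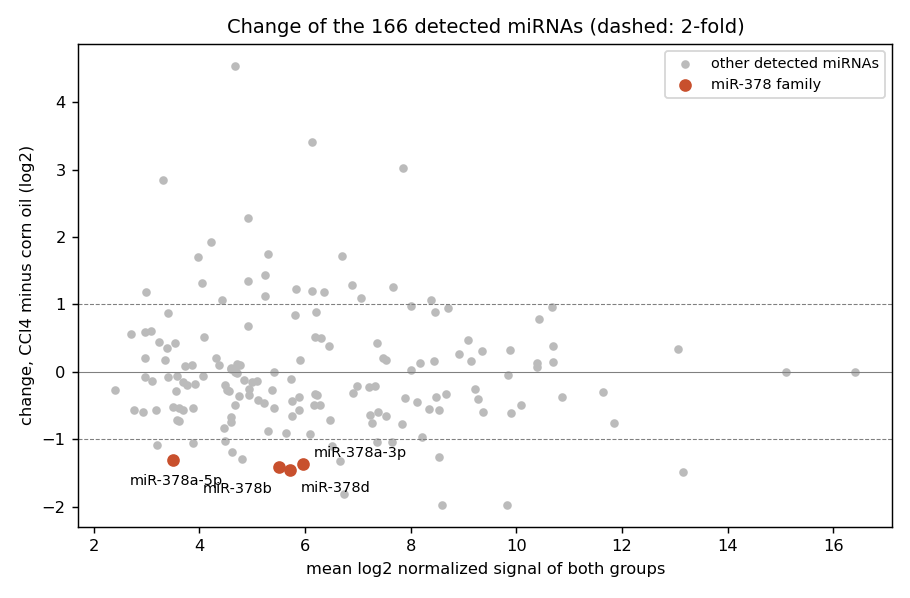
Log2 change (CCl4 minus corn oil) of the 166 detected miRNAs against their mean log2 normalized signal, with the 4 detected members marked. The members as plotted lie between -1.46 and -1.31, below the dashed line of a 2-fold change. The value of -1.31 belongs to the dim miR-378a-5p, for which no fold change is given. Its total in CCl4 replicate 1 left out a probe, and with every probe added its change was -0.96, less than 2-fold.

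Likeness to miR-378a-3p was measured as the mean absolute difference of log2 normalized signals over the 6 livers, each miRNA centered on its own mean. It was 0.05 for miR-378b, 0.06 for miR-378d and 0.27 for miR-378a-5p. Outside the family the closest were miR-212-3p at 0.08, miR-202-3p at 0.09, miR-203-3p at 0.14, miR-22-5p at 0.18 and miR-652-5p at 0.21, where the median was 0.68. All 5 had their highest unnormalized signal in CCl4 replicate 3, as the family did. That array was brighter as a whole, with a median log2 signal of 7.45 against 4.91 to 6.01 on the others, so this is not particular to them. The total signal of miR-212-3p, for example, was 109.7, 102.1 and 99.3 in controls and 97.8, 94.1 and 146.9 after CCl4. Of these 5, 3 were again among the closest with 75th percentile scaling, and 3 without CCl4 replicate 3.

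Among other miRNAs known to act on lipid, cholesterol or glucose metabolism, 12 of 18 were detected on all arrays and 0 were called in either direction. Over all 166 miRNAs 12.0% were called. The median change of the 12 metabolic miRNAs was -0.17, beside -0.14 for all 166 miRNAs. It turned to 0.07 without CCl4 replicate 1 and to 0.02 without CCl4 replicate 2. miR-103-3p and miR-107-3p, which lie in pantothenate kinase genes and act on insulin sensitivity, gave -0.21 and -0.65, with SDs among treated livers of 0.79 and 0.45, and -0.64 and -0.84 without CCl4 replicate 3. miR-27a-3p gave 1.26, with an SD of 0.73. Lower values came from miR-122-5p at -1.49, miR-148a-3p at -1.26, miR-30c-5p at -0.55, miR-27b-3p at -0.22 and miR-185-5p at -0.14. Their SDs among treated livers were 2.57, 1.22, 0.40, 0.89 and 0.32 in that order. Without CCl4 replicate 3 these changes were 0.00, -0.57, -0.73, -0.74 and -0.32. Higher ones came from miR-223-3p at 1.18, miR-143-3p at 0.68, miR-26a-5p at 0.31 and miR-29a-3p at 0.15. Their SDs among treated livers were 0.97, 0.53, 0.57 and 0.26 in that order. Without CCl4 replicate 3 they gave 1.75, 0.41, -0.01 and 0.00. The metabolic miRNAs thus lay on both sides of 0. miR-33-5p, which represses cholesterol export, was detected in CCl4 replicate 3 alone, at a total signal of 6.75, as were miR-370-3p and miR-335-5p, and miR-33-3p, miR-208b-3p and miR-499-5p were detected in none.

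Marker miRNAs of cell types were read beside the family. Over all 166 detected miRNAs 7.23% were called higher and 4.82% lower, so counts called in lists this small say little. The summed signals below are unnormalized, and the median unnormalized log2 change of the 166 miRNAs was 0.99. Of 7 hepatocyte miRNAs on the array, 6 were detected throughout and 0 were called, with a median change of -1.65, or -0.64 without CCl4 replicate 3. The summed signal of the 7, each added where detected, ran from 19132 to 21051 in controls and was 15134, 17911 and 3110.5 after CCl4. The brightest, miR-122-5p, changed by -1.49, or by 0.00 without CCl4 replicate 3. Quantile normalization fixes that 0.00, since miR-122-5p held the same rank in the livers kept. Its total signal was 16613 to 18345 in controls and 13110 and 15544 in CCl4 replicates 1 and 2. In CCl4 replicate 3 the members did not move together, as miR-122-3p was undetected and miR-101a-3p was at its highest, with a total signal of 296.9 against 64.3 to 74.6 in the other livers. Of 6 mesenchymal and stellate cell miRNAs, 4 were detected throughout, with a median change of 1.31. The 2 called were miR-199a-5p, higher by 1.34, and miR-199b-5p, higher by 2.28, and the brightest, miR-199a-3p, gave 1.28. The summed signal of all 6, each added where detected, ran from 67.2 to 109.1 in controls and from 255.4 to 1235.5 after CCl4. It includes miR-214-3p, detected in all treated livers but, among controls, only in corn oil replicate 3. It also includes miR-145a-5p, detected only in CCl4 replicates 1 and 3. Of 6 immune miRNAs, 3 were detected throughout, with a median change of 0.52, or 0.17 without CCl4 replicate 1 and 0.97 without CCl4 replicate 3, and 0 were called. The summed signal of all 6, each added where detected, ran from 77.7 to 90.95 in controls and from 346.2 to 474.8 after CCl4. It includes miR-150-5p and miR-155-5p, detected only after CCl4. It also includes miR-142-5p, detected in all treated livers but, among controls, only in corn oil replicate 1. The change of miR-223-3p, a myeloid miRNA, was 1.18, or 1.75 without CCl4 replicate 3. Of 3 red cell miRNAs on the array, 2 were detected throughout, with a median change of -0.55, or -0.34 without corn oil replicate 2 and -0.20 without CCl4 replicate 2, and 0 were called. The summed signal of the 3, each added where detected, ran from 466.0 to 754.3 in controls and from 314.5 to 2143.8 after CCl4. It was mostly miR-451a. The part of these cell types in the change of the family was not tested. The 7 markers of striated muscle, a tissue rich in miR-378, were undetected on all 6 arrays, miR-1a-3p, miR-133a-3p and miR-206-3p among them.

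**Figure D5:**
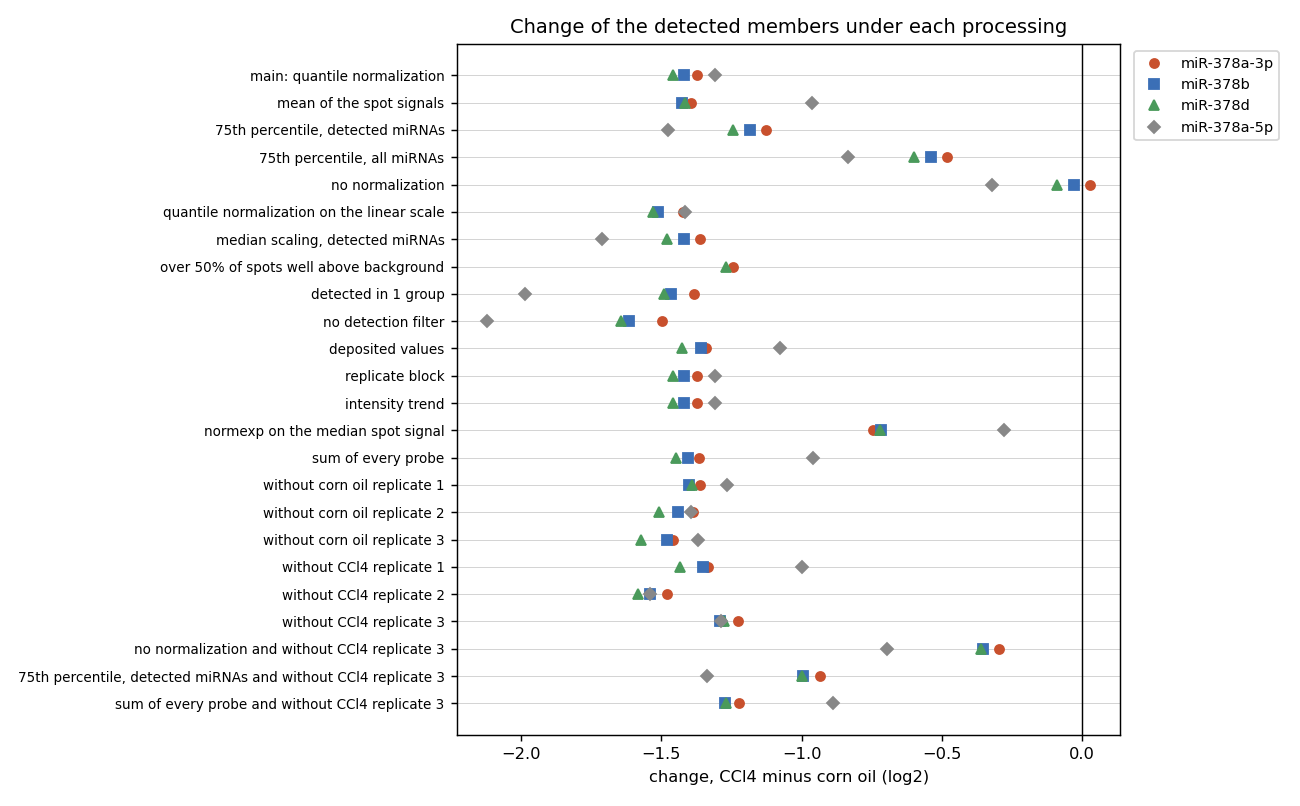
Log2 change (CCl4 minus corn oil) of the 4 detected members under each processing; each symbol is 1 member. That of miR-378a-3p is above 0 only without normalization with all livers kept, at 0.03, and lies between -1.48 and -1.23 with quantile normalization and 1 liver left out.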

How the data were processed

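RNA (100 ng per liver) was labeled with Cy3. The authors deposited the output of Agilent Feature Extraction 11.0.1.1, linear intensities after background subtraction, with flags for detection and for spots well above background. They also deposited a quantile-normalized intensity table of 111 miRNAs, used as an alternative, whose corn oil columns 1, 2 and 3 have the rank order of scanner arrays 2, 3 and 1.

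From the deposited intensities, log2 total signals were quantile normalized over the 166 detected miRNAs and compared with limma 3.58.1 in R 4.3.3, treatment being the single factor. On simulated data (166 miRNAs, 20 with a true log2 change of 2, 50 runs) 72.0% of the changes were recovered, with a median of 1 false call. Unlike the real arrays, the simulated ones had independent noise, no overall shift in signal and no array that stood apart. Rises and falls were equal in number, and the planted change was larger than that of any detected member. The recovery on these data may therefore differ. Tables and figures used Python 3.11.15, pandas 2.3.3 and matplotlib 3.10.9. Alternatives covered the signal summary, background correction, scaling, detection filter, replicate block and each liver left out. The number of arrays limits the precision, and 0 spots were saturated.

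The family and the metabolic, hepatocyte, mesenchymal and stellate, immune, red cell and striated muscle lists were chosen with earlier results of these data known. Named were the members, the 5 miRNAs most like miR-378a-3p, the metabolic list, and of each other list the called and the brightest miRNAs. The other marker miRNAs named were picked with their values in view.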

Additional observations from a re-analysis of the deposited data

How the results depend on the processing

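The number of miRNAs called, 20 with quantile normalization, was 7 when over 50% of spots had to be well above background, 32 with detection in 1 group, 6 with no detection filter and 12 from the deposited values. Members called, 3 with quantile normalization, were 0 with no detection filter, 0 without normalization and 0 with the 75th percentile of all miRNAs. Leaving out 1 liver gave 5 to 28 miRNAs and 0 to 4 members called. Same-numbered livers did not deviate together (correlations of -0.18, 0.11 and 0.03), so the numbers were not taken to pair them; a fit with the replicate block called 6 miRNAs and 0 members.

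The change of miR-378a-3p was -1.13 with the 75th percentile of detected miRNAs, -0.48 with that of all miRNAs, and reversed to 0.029 without normalization. That of miR-378b was -1.18, -0.54 and -0.030 in the same order, and -1.62 with no detection filter. For miR-378d it was -0.60 with the 75th percentile of all miRNAs and -0.089 without normalization. For miR-378a-5p it was -0.83 and -0.32 in these, -1.99 with detection in 1 group and -2.12 with no detection filter. Leaving out 1 liver gave -1.48 to -1.23 for miR-378a-3p, -1.54 to -0.997 for miR-378a-5p, -1.54 to -1.29 for miR-378b and -1.58 to -1.28 for miR-378d.

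Further alternatives were chosen after seeing the data. Normexp on the median spot signal, run because the mean spot signal planned for it was not used here, called 6 miRNAs and 0 members, with -0.75 for miR-378a-3p, -0.28 for miR-378a-5p, -0.72 for miR-378b and -0.72 for miR-378d. No normalization together with leaving out CCl4 replicate 3 called 41 miRNAs and 0 members, with -0.30, -0.70, -0.35 and -0.36 in that order. The 75th percentile of detected miRNAs without that liver called 26 miRNAs (18 higher, 8 lower) and 1 member, the dim miR-378a-5p, whose total in CCl4 replicate 1 left out a probe, with -0.94 for miR-378a-3p, -0.99 for miR-378b and -0.998 for miR-378d. Over all alternatives the change was below 0 in 22 of 23 for miR-378a-3p, 22 of 22 for miR-378a-5p and miR-378b, and 23 of 23 for miR-378d. That tally is no test. The family was chosen from this contrast, and the alternatives share livers. A replicate block or a variance trend with intensity cannot alter the change, and values close to 0 were counted too. The cause of the differences between alternatives was not tested. The dimness of miR-378a-5p and of the first probe of miR-378b limits what the arrays measured of them.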
